A study of Homo sapiens with 12 samples.

Results

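Hedgehog signalling was followed at the RNA level through 9 genes in induced pluripotent stem cells of the 201B7 line, an established human line kept as undifferentiated colonies. The genes were the ligand SHH, the receptor PTCH1, the ligand-binding inhibitor HHIP, the co-receptors GAS1 and BOC, the signal transducer SMO and the transcription factors GLI1, GLI2 and GLI3. They were chosen by gene name, and all 9 of these genes were found among the 60617 genes of the TPM table and the 58575 genes of the count table. TPM is a read count divided by gene length and scaled to a common total, so levels of different genes can be compared as far as the length fits. The lengths used ran from 3145 bases for GAS1 to 16591 for PTCH1. A length beyond that of the transcripts present lowers the TPM, so orders, shares and ratios between genes depend on it.

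RNA-Seq was carried out in 12 libraries, 3 for each of 4 culture conditions, all harvested on Day 5. Cond 1 was the control, cultured in StemFit medium in the usual way. Cond 2 (low nutrient) received StemFit that had been heated at 56 °C for 30 min, Cond 3 (differentiation) received DMEM with 10% FBS, non-essential amino acids and GlutaMax, and Cond 4 (physical stimulus) was kept in regular medium after its cells had been suspended by 20 pipette strokes at passage. One unedited line was used throughout. A condition had a well of its own on a multiwell plate, the arrangement was run in triplicate, and the replicates are described as technical, so every p-value measures only the spread between these libraries. The altered media of Cond 2 and Cond 3 were given for different lengths of time before harvest, so that medium and length of exposure cannot be told apart in a comparison between them.

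In the textbook account, Hedgehog ligands bind PTCH1, which otherwise holds SMO inactive in the primary cilium, and free SMO turns the GLI factors from repressors into activators. GLI1 acts mainly as an activator and is itself a target of the pathway, GLI2 is the main activator upstream of it, and GLI3 is known chiefly for its repressor form. PTCH1 and HHIP are known targets that restrain the pathway, whereas GAS1 and BOC, which present the ligand to PTCH1, are known as genes that an active pathway lowers in the neural tube.

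Totals ranged from 16441148 to 21871503 counts per library. As a check of the label, the summed TPM of 10 pluripotent cell markers was between 6237 and 7635 in all 12 libraries, with SOX2 at 878 TPM or more in each, while NANOG fell by 1.09 in Cond 2 (edgeR adjusted p = 6.43e-10) and by 2.16 in Cond 3 (adjusted p = 1.40e-14) on the log2 scale. Most of the summed TPM was LIN28A, DNMT3B and SOX2, so the sum can hide falls of other markers. TDGF1, for example, went from a mean of 1299 TPM in Cond 1 to 490 in Cond 2 and 689 in Cond 3. POU5F1 was not among the 10. Of these 10 markers, 3 rose and 4 fell in Cond 2, and 6 rose and 4 fell in Cond 3. That was 70% and 100% of them, beside 20.9% and 38.4% of all genes tested. The floor plate marker FOXA2 and the neural stem cell marker HES5 were at 0 in all libraries. Other markers listed for these cell types were expressed in every library, such as NES (314 to 479 TPM) and NTN1 (7.87 to 15.0 TPM).

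The sequence before the start site is shown for the 3 genes that stand for the known positive and negative responses to the pathway, namely the targets PTCH1 and HHIP and the co-receptor GAS1. RefSeq windows on GRCh38.p14 matched 7 of the 9 genes, with GLI1 and GLI3 not matched. The 3 windows below hold the 250 bases before a start site, 5′ to 3′ on the strand of the gene, and capitals mark the motif letters found, either the GLI consensus GACCACCCA or its core CCACCC, on either strand. The PTCH1 window lies at chr9:95509267-95509516 (minus strand), inside the gene but in no annotated exon. The HHIP window lies at chr4:144645906-144646155 (plus strand), where 82 bases are exon of the antisense gene HHIP-AS1, and the GAS1 window at chr9:86947507-86947756 (minus strand) outside any exon.
PTCH1: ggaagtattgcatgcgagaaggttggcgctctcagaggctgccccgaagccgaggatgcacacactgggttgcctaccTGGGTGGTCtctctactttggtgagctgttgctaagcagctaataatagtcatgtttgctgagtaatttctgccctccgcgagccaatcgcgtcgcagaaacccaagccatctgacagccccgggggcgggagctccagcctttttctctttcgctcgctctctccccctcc
HHIP: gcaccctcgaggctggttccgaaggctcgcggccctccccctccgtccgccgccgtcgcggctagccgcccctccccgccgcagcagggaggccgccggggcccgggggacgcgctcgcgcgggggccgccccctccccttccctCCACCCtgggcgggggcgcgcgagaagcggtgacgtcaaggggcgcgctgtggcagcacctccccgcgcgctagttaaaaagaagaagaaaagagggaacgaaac
GAS1: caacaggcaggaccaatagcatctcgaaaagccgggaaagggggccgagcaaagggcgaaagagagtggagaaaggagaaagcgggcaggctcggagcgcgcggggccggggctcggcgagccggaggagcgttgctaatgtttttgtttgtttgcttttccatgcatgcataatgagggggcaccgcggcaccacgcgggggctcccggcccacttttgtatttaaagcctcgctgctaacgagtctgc
The table held 5 windows for PTCH1, and the one printed was picked because it alone held the GLI consensus; the 4 others, including the one at chr9:95516972-95517221 around the annotated start of the gene, did not. The printed PTCH1 window held the consensus in reverse complement, TGGGTGGTC, starting 172 bases before its start site. Among 35116 RefSeq windows of this length, 70 (0.199%) held the consensus on either strand. Of the 13 windows of the Hedgehog genes, 5 of them from PTCH1, only the printed PTCH1 window did, and a single window cannot show an excess. The HHIP window held only the core, which lies within the consensus and was present in 31.3% of all windows and in 4 of the 13. The GAS1 window held neither.

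The levels of the 9 genes followed nearly one order in the 4 conditions. By mean TPM in Cond 1, SMO (94.7 ± 5.25, SD, n = 3) stood above GLI2 (34.6 ± 1.07), GLI1 (22.8 ± 2.69), GAS1 (16.7 ± 1.93), GLI3 (11.4 ± 0.720), PTCH1 (5.02 ± 0.163), BOC (4.16 ± 0.410) and HHIP (0.599 ± 0.0116), with SHH at 0. Within each condition, neighbours in this order did not overlap in any library, with the exception that GAS1 stood above GLI1 in Cond 2. The transducer and the GLI factors were thus expressed in every library, whereas the ligand was at or near 0.

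**Figure D1:**
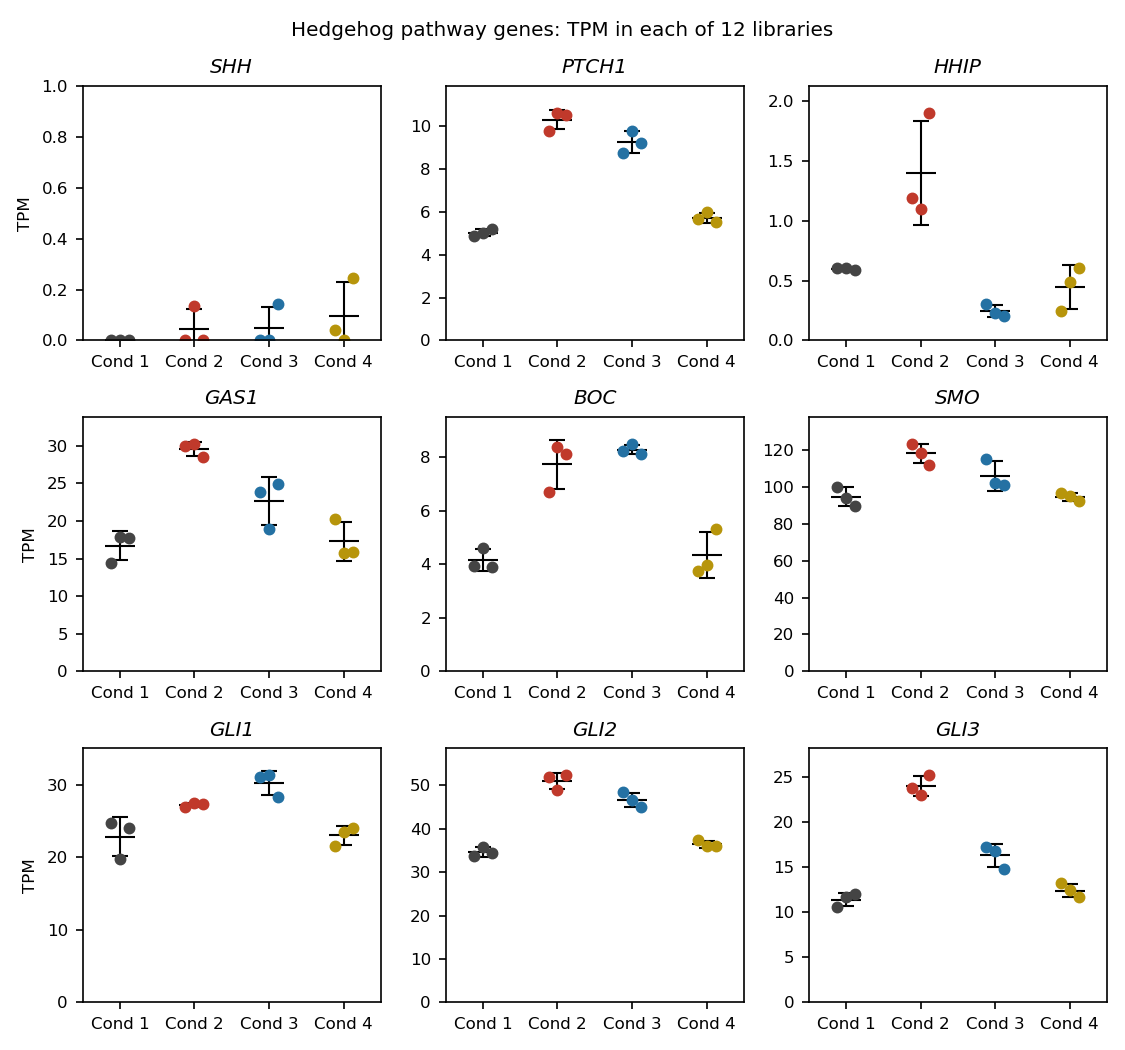
TPM of each of the 9 Hedgehog genes (vertical axis, from 0, with its own scale per gene) in the 3 libraries of each condition; points are libraries and bars the mean ± SD. PTCH1, GLI2 and GLI3 are higher in Cond 2 and Cond 3 than in Cond 1, HHIP is higher in Cond 2 and lower in Cond 3, and SHH stays below 0.25 TPM.

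SHH, the ligand, was barely detected. Its counts were 0, 0 and 0 in Cond 1, 0, 4 and 0 in Cond 2, 0, 0 and 4 in Cond 3, and 1, 0 and 7 in Cond 4. A count of 0 allows up to 3 counts in a library at this depth, so that a difference in SHH was not detectable and the gene was below the filter for the test. The other ligands were as scarce, with at most 0.305 TPM for IHH and 0.234 TPM for DHH in any library beside at most 0.247 TPM for SHH, and HHAT, the enzyme that attaches palmitate to the ligands, at most at 0.0319 TPM. SHH (ENSG00000164690) lies on chromosome 7 at 155799980 to 155812463, minus strand, in GRCh38.

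Against the control, 7 of the 8 Hedgehog genes tested passed in Cond 2, all 7 higher, in a test in which 10.8% of 17747 genes were called higher and 20.9% in either direction. In Cond 3, 7 of 8 also passed, of which 6 were higher and HHIP was lower, beside 19.5% of all genes called higher, 18.8% lower and 38.4% in either direction. In Cond 4 none of the 8 passed, and 0.0282% of all genes did. A gene was called at an adjusted p-value under 0.05 in the quasi-likelihood test of edgeR, with the adjustment over all genes tested. The median log2 fold change of the 8 genes came to 0.78 for Cond 2, 0.41 for Cond 3 and 0.05 for Cond 4, whereas that of all genes lay between -0.01 and 0.00 in the same comparisons. Only HHIP also passed a fold change of 2, in Cond 2 and in Cond 3, a mark that 4.34% and 8.16% of all genes passed. GLI3 and PTCH1 lay just short of it in Cond 2 (log2 0.98 and 0.95) and BOC in Cond 3 (0.97). Over the alternative settings GLI3 ranged from 0.92 to 1.06, PTCH1 from 0.91 to 1.02 and BOC from 0.85 to 1.05. HHIP ranged from 0.57 to 1.28 in Cond 2 and from -1.48 to -0.36 in Cond 3. Which genes passed the mark thus depended on the setting. The 3 comparisons share the Cond 1 libraries. Where markers of other cell types moved too, as described further on, a change in the number of cells of a type and a change in RNA per cell, up or down, cannot be told apart in such bulk samples.

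**Figure D2:**
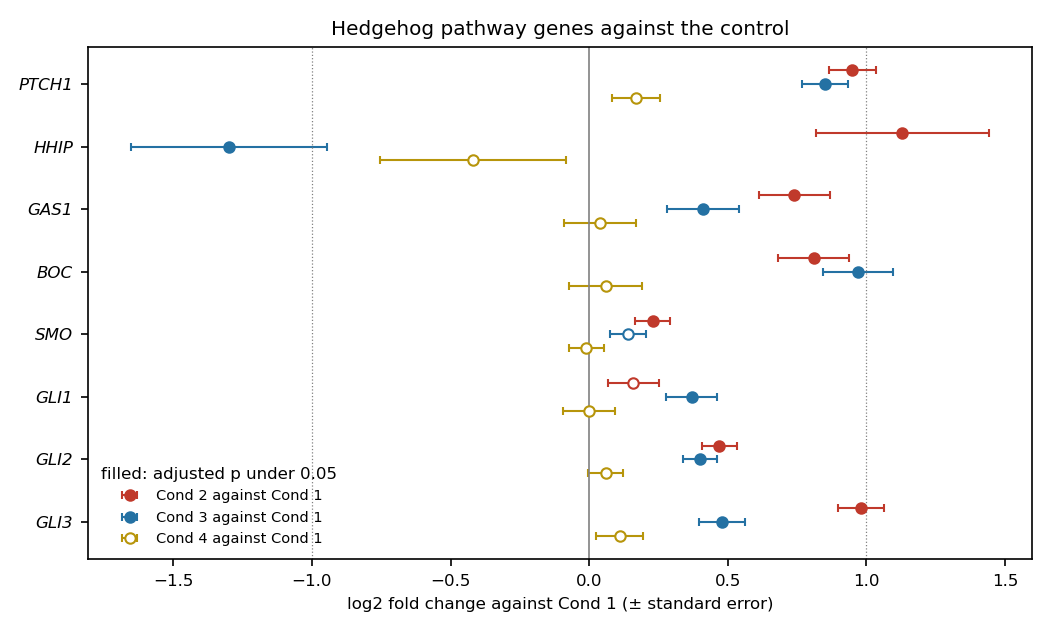
Log2 fold change of 8 Hedgehog genes against Cond 1 (horizontal axis) with its standard error in Cond 2, Cond 3 and Cond 4; filled points passed the test and dotted lines mark a fold change of 2. In Cond 2 and Cond 3 every point but that of HHIP in Cond 3 lies above 0, and in Cond 4 all points are open.

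PTCH1, the receptor that binds the ligand and inhibits SMO, was higher in both altered media. It was at 4.86, 5.03 and 5.18 TPM in Cond 1. In Cond 2 it was at 9.78, 10.6 and 10.5 TPM, and in Cond 3 at 8.76, 9.78 and 9.20 TPM. All 6 libraries of the altered media stood above all those of Cond 1, and the lowest library of Cond 2 lay almost level with the highest of Cond 3. PTCH1 rose by 0.95 on the log2 scale in Cond 2 (SE 0.0835, adjusted p = 1.27e-08) and by 0.85 in Cond 3 (SE 0.0835, adjusted p = 3.57e-08), and the difference between the altered media was -0.10 (95% interval -0.25 to 0.06, adjusted p = 0.379). In Cond 4, PTCH1 was at 5.67, 5.97 and 5.51 TPM, each above the highest Cond 1 library, yet the log2 difference of 0.17 did not pass (95% interval 0.00 to 0.34, adjusted p = 0.806). PTCH1 (ENSG00000185920) lies on chromosome 9 at 95442980 to 95517057, minus strand of GRCh38 in GENCODE release 44, and shares 711 exon bases with an antisense gene that had at most 10 counts in a library.

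HHIP, a membrane protein that binds and sequesters Hedgehog ligands, was the gene that moved in opposite directions. Its TPM was 0.608, 0.603 and 0.586 in Cond 1, from 34 to 41 counts. The Cond 2 libraries had 1.19, 1.10 and 1.9 TPM, and the Cond 3 libraries 0.301, 0.229 and 0.205 TPM from 13 to 22 counts. The 3 conditions did not overlap, with replicate 3 of Cond 2 well above its companions. HHIP rose by 1.13 on the log2 scale in Cond 2 (SE 0.313, adjusted p = 0.0114) and fell by 1.30 in Cond 3 (SE 0.354, adjusted p = 0.00549). Without replicate 3 of Cond 2 the rise was 0.86 with an adjusted p of 0.0921, and with all libraries kept the call was also lost under limma on log2(TPM + 0.1), with a log2 difference of 1.06 and an adjusted p of 0.0670. On the log2(TPM + 1) scale with limma, which compresses low values, the Cond 3 difference was -0.36 with an adjusted p of 0.0936. Directly compared, HHIP was 5.39-fold lower in Cond 3 than in Cond 2 (log2 difference -2.43, SE 0.342, adjusted p = 6.01e-06). In Cond 4 it was at 0.248, 0.490 and 0.604 TPM and overlapped Cond 1 (log2 difference -0.42, 95% interval -1.08 to 0.23).

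HHIP (ENSG00000164161) lies on chromosome 4 at 144646156 to 144745271, plus strand, and shares 813 exon bases, 6.81% of its exon length, with HHIP-AS1, an antisense RNA that starts on the other strand beside it. HHIP-AS1 was at 2.19, 3.15 and 2.22 TPM in Cond 1. It was at 4.87, 2.6 and 4.82 TPM in Cond 2 and at 1.67, 0.679 and 1.23 TPM in Cond 3. Its order of conditions was that of HHIP, with all Cond 3 libraries below all Cond 1 libraries and with overlap between Cond 1 and Cond 2. In Cond 3 HHIP-AS1 fell by 1.09 on the log2 scale (SE 0.429, adjusted p = 0.0489), a call lost in 9 of 13 alternative settings, and in Cond 2 the difference was 0.62 (adjusted p = 0.304). It was lower in Cond 3 than in Cond 2 by a log2 difference of -1.71 (SE 0.419, adjusted p = 0.00243). The libraries keep strand, but the strand setting of the counting is not given in the sources used here, so reads on the shared bases may have been counted for either gene.

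GAS1, an anchored co-receptor that helps SHH bind PTCH1, stood highest in Cond 2. It was at 14.4, 17.9 and 17.7 TPM in Cond 1, at 30.0, 30.2 and 28.5 TPM in Cond 2, and at 23.8, 18.9 and 24.9 TPM in Cond 3. The Cond 2 libraries were above all others, and those of Cond 3 lay above Cond 1 by a narrow gap. GAS1 rose by 0.74 on the log2 scale in Cond 2 (SE 0.128, adjusted p = 1.36e-04) and by 0.41 in Cond 3 (SE 0.129, adjusted p = 0.0147), with Cond 3 below Cond 2 by a log2 difference of -0.33 (SE 0.125, adjusted p = 0.0382). The Cond 3 call was lost without replicate 1 of Cond 1 (adjusted p = 0.0987), without replicate 1 of Cond 3 (0.0571) or without replicate 3 of Cond 3 (0.0834), and with all libraries under limma on log2(TPM + 1) (0.0643) and log2(TPM + 0.1) (0.108). The call between the altered media was lost without replicate 1 or 2 of Cond 2 or of Cond 3, with the highest adjusted p, 0.211, and a log2 difference of -0.22 without replicate 2 of Cond 3. With all libraries it was lost under upper-quartile normalization (adjusted p = 0.0617) and under limma on log2(TPM + 1) (0.0800) and log2(TPM + 0.1) (0.133). In Cond 4 GAS1 was at 20.3, 15.8 and 15.9 TPM, overlapping Cond 1. GAS1 (ENSG00000180447) lies on chromosome 9 at 86944362 to 86947506, minus strand.

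BOC, a co-receptor of the immunoglobulin superfamily, was higher in both altered media than in the control. Its libraries were at 3.95, 4.63 and 3.90 TPM in Cond 1, at 6.70, 8.39 and 8.14 TPM in Cond 2 and at 8.25, 8.49 and 8.14 TPM in Cond 3. Cond 2 and Cond 3 overlapped each other and stood clear of Cond 1. BOC rose by 0.81 in Cond 2 (SE 0.128, adjusted p = 5.00e-05) and by 0.97 in Cond 3 (SE 0.127, adjusted p = 2.29e-06) on the log2 scale, and the altered media differed by 0.16 (95% interval -0.08 to 0.40, adjusted p = 0.336). Cond 4, at 3.76, 3.96 and 5.33 TPM, overlapped Cond 1. Together with CDON, the related co-receptor, the summed co-receptor level was 30.7 ± 2.62 TPM in Cond 1, 50 ± 1.72 in Cond 2, 44.2 ± 3.76 in Cond 3 and 31.1 ± 3.15 in Cond 4 (SD, n = 3). Cond 2 and Cond 3 did not overlap Cond 1 in this sum, and the exact two-sided permutation p was 0.1 for each, the smallest that 3 against 3 libraries allow. BOC (ENSG00000144857) lies on chromosome 3 at 113211003 to 113287459, plus strand, and shares 530 exon bases with CFAP44 on the other strand, which had at most 20 counts in a library.

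SMO, the transducer that acts once PTCH1 is bound, had the highest level of the 9 genes in every condition. It was at 100, 93.9 and 89.8 TPM in Cond 1, at 123, 118 and 112 TPM in Cond 2 and at 115, 102 and 101 TPM in Cond 3. The altered media lay above the control in TPM, by little in Cond 3, and overlapped each other. SMO rose by 0.23 on the log2 scale in Cond 2 (SE 0.0636, adjusted p = 0.0107), a call that was lost without replicate 3 of Cond 1 (adjusted p = 0.0593), without replicate 1 of Cond 2 (adjusted p = 0.0588) and under limma on log2(TPM + 0.1) (log2 difference 0.32, adjusted p = 0.0987). In Cond 3 the log2 difference was 0.14 (95% interval 0.01 to 0.26, adjusted p = 0.0956), and Cond 4, at 96.6, 94.9 and 92.2 TPM, overlapped Cond 1. The ratio of PTCH1 to SMO in TPM was 0.0532 ± 0.00464 in Cond 1, 0.0875 ± 0.00712 in Cond 2, 0.0876 ± 0.0105 in Cond 3 and 0.0604 ± 0.00215 in Cond 4 (SD, n = 3). In that ratio the libraries of Cond 2, Cond 3 and Cond 4 all stood above Cond 1 (exact permutation p = 0.1 each). SMO (ENSG00000128602) lies on chromosome 7 at 129188633 to 129213545, plus strand.

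GLI1, the activator whose own transcription follows the pathway, was called in Cond 3 and not in Cond 2. The libraries were at 24.7, 19.7 and 24.0 TPM in Cond 1, at 26.9, 27.5 and 27.4 TPM in Cond 2 and at 31, 31.3 and 28.3 TPM in Cond 3. In TPM both altered media stood above the control, with replicate 2 of Cond 1 the lowest of all 12 libraries. GLI1 rose by 0.37 on the log2 scale in Cond 3 (SE 0.0925, adjusted p = 0.00264), and in Cond 2 the difference was 0.16 (95% interval -0.02 to 0.35, adjusted p = 0.240). Cond 3 against Cond 2 gave a log2 difference of 0.21 (SE 0.0918, adjusted p = 0.0785), so that the altered media were not shown to differ in GLI1, except under upper-quartile normalization, with a log2 difference of 0.24 and an adjusted p of 0.0433. Cond 4, at 21.6, 23.5 and 24.0 TPM, overlapped Cond 1. GLI1 (ENSG00000111087) lies on chromosome 12 at 57459785 to 57472268, plus strand.

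GLI2 was the most abundant GLI factor in every library. It was at 33.8, 35.8 and 34.3 TPM in Cond 1, at 51.8, 48.9 and 52.3 TPM in Cond 2, and at 48.4, 46.5 and 45.0 TPM in Cond 3. Both altered media stood clear of the control and lay close to each other. GLI2 rose by 0.47 in Cond 2 (SE 0.0618, adjusted p = 4.51e-06) and by 0.40 in Cond 3 (SE 0.0618, adjusted p = 1.93e-05) on the log2 scale, and the altered media differed by -0.07 (95% interval -0.19 to 0.05, adjusted p = 0.390). In Cond 4 it was at 37.4, 35.9 and 36.0 TPM, each above the highest Cond 1 library by a small margin, and the log2 difference of 0.06 did not pass (95% interval -0.06 to 0.18, adjusted p = 0.926). GLI2 (ENSG00000074047) lies on chromosome 2 at 120735623 to 120992653, plus strand.

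GLI3 had the largest rise of the GLI factors in Cond 2. Its level was 10.6, 11.7 and 12 TPM in Cond 1, 23.8, 23.0 and 25.2 TPM in Cond 2, and 17.2, 16.8 and 14.8 TPM in Cond 3. The 3 conditions formed separate steps, with Cond 3 between the other two. GLI3 rose by 0.98 on the log2 scale in Cond 2 (SE 0.0823, adjusted p = 5.46e-09) and by 0.48 in Cond 3 (SE 0.0828, adjusted p = 6.92e-05). It was lower in Cond 3 than in Cond 2 by a log2 difference of -0.50 (SE 0.0804, adjusted p = 3.31e-05). Cond 4, at 13.2, 12.5 and 11.7 TPM, overlapped Cond 1. GLI3 (ENSG00000106571) lies on chromosome 7 at 41960949 to 42264100, minus strand.

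The make-up of the GLI transcripts in the Cond 2 libraries stood apart from that in the others. GLI3 made up 15.4%, 17.4% and 17.0% of the summed GLI TPM in Cond 1 and 23.2%, 23.1% and 24.0% in Cond 2. GLI1 made up 35.8%, 29.3% and 34.2% in Cond 1 and 26.2%, 27.6% and 26.1% in Cond 2. Neither share overlapped between Cond 2 and Cond 1, or between Cond 2 and Cond 3, and the exact permutation p was 0.1 for each, the smallest possible. In Cond 3 the mean shares of GLI1 (32.4% ± 0.580) and GLI3 (17.5% ± 0.555) overlapped those of Cond 1 (33.1% ± 3.34 and 16.6% ± 1.09, SD, n = 3), and those of Cond 4 did so as well. The GLI2 share was between 49.9% and 50.7% on average in every condition. The summed GLI level itself was 68.9 ± 1.52 TPM in Cond 1, 102 ± 2.74 in Cond 2, 93.1 ± 4.42 in Cond 3 and 71.9 ± 0.186 in Cond 4 (SD, n = 3). For each unit of GLI1 there was 0.222 ± 0.0297 of PTCH1 in TPM in the control, 0.378 ± 0.0121 in Cond 2 and 0.307 ± 0.0218 in Cond 3 (SD, n = 3), and the libraries of these conditions did not overlap.

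**Figure D3:**
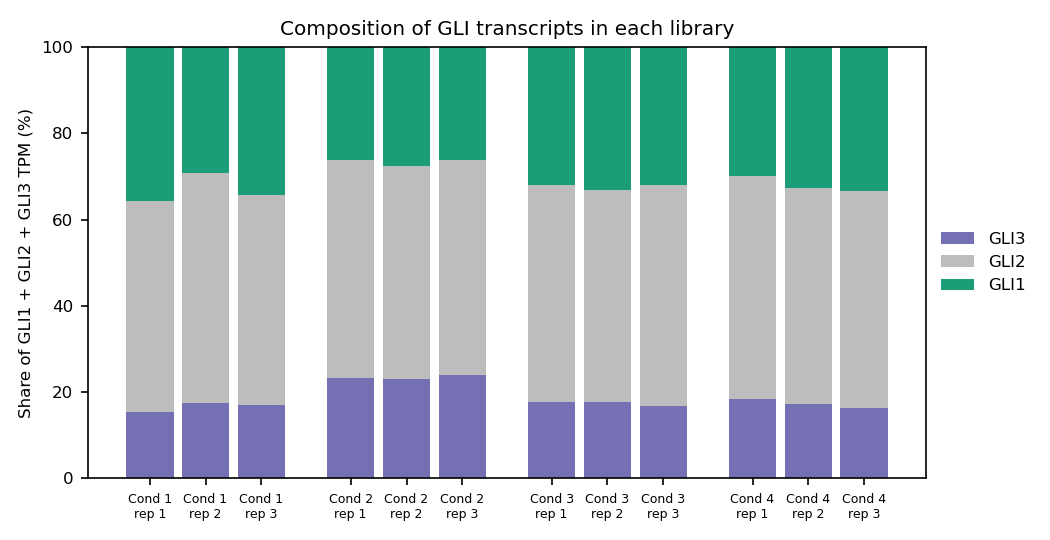
Share of GLI1, GLI2 and GLI3 in their summed TPM (vertical axis, percent) in each of the 12 libraries. In the 3 Cond 2 libraries GLI3 makes up 23.1% to 24.0% and in the 9 others 15.4% to 18.3%.

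Compared directly, Cond 3 and Cond 2 differed in 3 of the 8 genes, all lower in Cond 3, where 19.2% of all genes were called lower and 38.2% in either direction. The calls were 37.5% of the 8 genes, near the share of all genes called in either direction. The 3 genes were HHIP, GLI3 and GAS1, of which HHIP alone also passed a fold change of 2, as did 8.77% of all genes. GAS1 lost the call in 7 of 14 alternatives. For PTCH1, SMO, GLI1, GLI2 and BOC the differences did not pass, with log2 values between -0.10 and 0.21.

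Across the 12 libraries, GLI2 and PTCH1 varied most alike among the Hedgehog genes (Pearson r of log2 CPM 0.97), followed by GLI2 with GLI3 (0.93) and PTCH1 with BOC (0.92). HHIP had r between -0.24 and 0.47 with the others. These correlations describe 12 libraries that share 4 conditions and carry no test. Among 15701 genes with a mean of at least 1 TPM, the patterns most like PTCH1 were those of SOX2 (r 0.982), TRPC4 (0.982) and MCC (0.979), with SOX2 at means of 908, 1304, 1263 and 960 TPM in Cond 1 to Cond 4. GLI2 was most like TP53BP2 (0.987) and FEZF1 (0.980), and FEZF1, a forebrain transcription factor, had means of 5.99, 128, 60.5 and 7.48 TPM. For GLI3 the leading genes were CAMSAP1 (0.987), SH3BP4 (0.976) and CDC6 (0.976), and for BOC they were SALL4 (0.984), CDK4 (0.979) and SDC1 (0.977). GLI1 was most like AK7 (0.962), CIP2A (0.960) and SPON2 (0.952). SMO followed EFS (0.939), NUMA1 (0.929) and FGFR1 (0.929), and GAS1 followed FJX1 (0.951), GTF2I (0.95) and PROS1 (0.947). The pattern of HHIP was shared most closely by NUAK2 (0.965), LAMB1 (0.953) and IFT74 (0.944).

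The wider pathway was described with 53 further genes, of which 41 passed the filter for the test. In Cond 2, 11 of these 41 rose and 4 fell, in Cond 3, 13 rose and 10 fell, and in Cond 4 none passed. These calls came to 36.6% of the 41 in Cond 2, where 20.9% of all genes were called, and to 56.1% in Cond 3, where 38.4% were. Their median log2 fold change was 0.19, 0.06 and -0.03.

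Among 7 genes of ligand processing and release, 3 were tested. SCUBE3, one of the secreted proteins that release lipid-bound ligand, was at 3.11, 3.01 and 3.71 TPM in Cond 1 and at 11.4, 10.0 and 10.4 TPM in Cond 2, where it rose by 1.60 on the log2 scale (adjusted p = 1.73e-07). DISP1, the transporter that exports the ligands, fell by 1.04 in Cond 3 (adjusted p = 2.21e-07), from a mean of 12.3 to 6.09 TPM. SCUBE2 fell by 1.54 in Cond 2, on means of 0.636 and 0.227 TPM, and lost the call in 8 of 13 alternatives. SCUBE1 had no count row and was tested on log2(TPM + 1) with limma, where it rose by 0.99 in Cond 2 (adjusted p = 0.00288) and by 1.14 in Cond 3 (adjusted p = 6.77e-04).

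All 6 genes at the receptor level were tested, and in Cond 2 and Cond 3 alike 3 rose and 1 fell, 66.7% of the 6 beside 20.9% and 38.4% of all genes. GPC3, a glypican that competes with PTCH1 for ligand, was at 420, 440 and 440 TPM in Cond 1 and at 1645, 1581 and 1544 TPM in Cond 2, and rose by 1.79 on the log2 scale (adjusted p = 4.61e-15), while in Cond 3 the difference was 0.06. LRP2, the megalin receptor that takes up SHH, rose by 2.25 in Cond 2 (adjusted p = 8.78e-12) and by 0.87 in Cond 3 (adjusted p = 1.40e-05), from a mean of 3.26 TPM to 16.5 and 6.08 TPM. CDON rose by 0.41 in Cond 3 (adjusted p = 0.00160), a call lost under limma on log2(TPM + 0.1) (adjusted p = 0.0513). In Cond 2 CDON passed with 0.28 (adjusted p = 0.0443) and lost the call in 11 of 14 alternatives. MGRN1, a ubiquitin ligase, passed in neither. The summed level of these 6 genes was 546 to 569 TPM in Cond 1, 1676 to 1777 in Cond 2 and 556 to 616 in Cond 3, most of it GPC3.

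Of 25 genes of the cilium and of GLI control, all tested, 5 rose and 1 fell in Cond 2 and 8 rose and 6 fell in Cond 3. That was 24% of the group in Cond 2, near the 20.9% of all genes called, and 56% in Cond 3 against 38.4%. PRKAR1A, CSNK1A1 and GRK2 had the highest mean TPM of this group. PRKAR1A, a subunit of the kinase that primes GLI for processing, fell by 0.31 in Cond 3 (adjusted p = 6.57e-05), a call lost under limma on log2(TPM + 0.1) (adjusted p = 0.0611). CSNK1A1 passed in neither comparison, and GRK2, which phosphorylates SMO, fell by 0.28 in Cond 3, a call lost under limma on log2(TPM + 0.1) (adjusted p = 0.0914), and by 0.18 in Cond 2, lost in 9 of 14 alternatives. The next 6 genes were picked after their values were seen. SUFU, the main inhibitor that binds GLI proteins, rose by 0.45 in Cond 2 (adjusted p = 0.00203) and by 0.78 in Cond 3 (adjusted p = 1.61e-06). GPR161, a ciliary receptor that keeps the pathway off, rose by 0.38 (adjusted p = 0.00796) and by 0.75 (adjusted p = 2.13e-06), the former lost without replicate 1 of Cond 2 (adjusted p = 0.0506). KIF3A, a motor that builds the cilium, rose by 0.54 and by 0.58 in the same comparisons. In the other direction, IFT172, a transport protein of the cilium, fell by 0.53 in Cond 3 (adjusted p = 4.40e-04), and ULK3, a kinase that acts on GLI proteins, fell by 0.51 (adjusted p = 3.55e-04), while in Cond 2 their log2 differences were 0.19 and -0.00 and did not pass. KIF7, a ciliary kinesin that holds GLI in check, was 0.16 (adjusted p = 0.153) in Cond 2 and fell by 0.21 in Cond 3 (adjusted p = 0.0325), the latter lost in 9 of 14 alternatives.

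Of 13 genes listed as targets in other tissues, 6 were tested, and in Cond 2 and Cond 3 alike 2 rose and 1 fell, 50% of the 6 beside 20.9% and 38.4% of all genes. FOXF1, FOXA2 and NKX2-2, which mark mesenchymal and ventral neural responses, were at or near 0. BMP4, a ligand of the BMP pathway, rose by 1.72 on the log2 scale in Cond 2 (adjusted p = 5.93e-07) and by 0.84 in Cond 3 (adjusted p = 0.00197). CCND2, a cyclin, fell by 1.62 in Cond 3 (adjusted p = 6.22e-13), from 51.1, 42.3 and 46.8 TPM to 17.0, 14.2 and 15.2 TPM, and by 0.36 in Cond 2 (adjusted p = 0.00129), the latter lost under limma on log2(TPM + 1) (adjusted p = 0.119) and log2(TPM + 0.1) (0.235). CCND1, its paralogue, rose by 0.22 in Cond 2 (adjusted p = 0.00292), a call lost under limma on log2(TPM + 0.1) (adjusted p = 0.0656). MYCN rose by 0.35 in Cond 3 (adjusted p = 3.34e-05), while SNAI1 passed in neither.

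**Figure D4:**
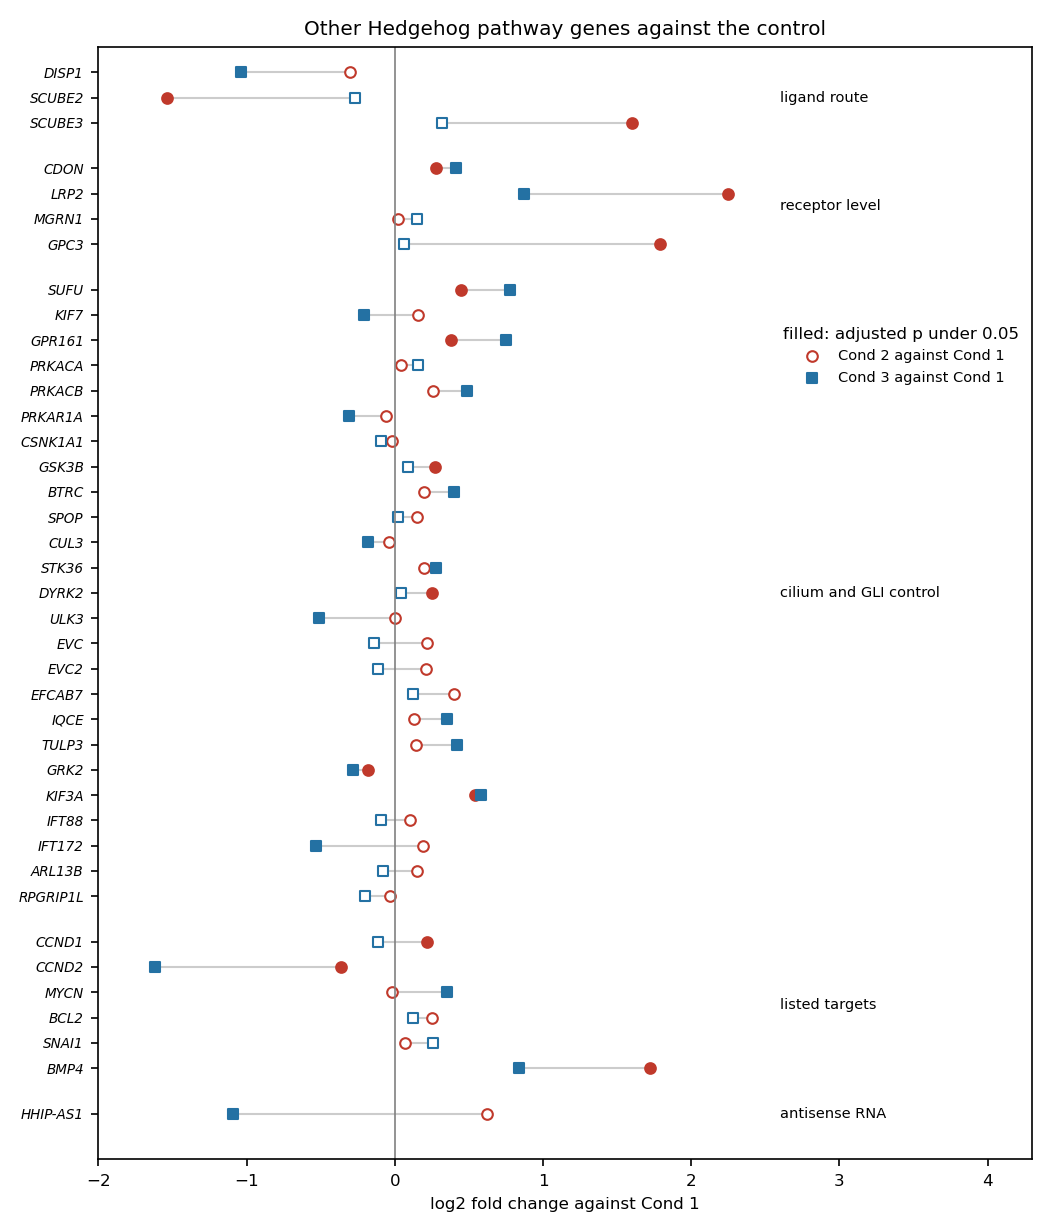
Log2 fold change against Cond 1 (horizontal axis) of other pathway genes tested, in Cond 2 (circles) and Cond 3 (squares), grouped by role; filled symbols passed the test. LRP2, GPC3, BMP4 and SCUBE3 lie farthest to the right in Cond 2 and CCND2 farthest to the left in Cond 3.

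Markers of other cell types also changed in Cond 2 and Cond 3, not always in the direction of the Hedgehog genes. Their part in these results was not tested. The markers given by name here were picked after their values were seen. Of 8 neural progenitor markers, 6 were tested and 3 rose in Cond 2 and in Cond 3. That was 50% of those tested, beside 20.9% of all genes in Cond 2 and 38.4% in Cond 3. The summed level of the 8 was 334 to 389 TPM in Cond 1, 641 to 890 in Cond 2, 509 to 524 in Cond 3 and 334 to 390 in Cond 4. Most of the sum in Cond 1 was NES, with means of 341, 323, 468 and 342 TPM in Cond 1 to Cond 4. The higher sum in Cond 2 thus came from SIX3 and LHX5 (means of 158 and 262 TPM), and that in Cond 3 mostly from NES. SIX3, a forebrain transcription factor, went from 0.736, 2.34 and 4.09 TPM in Cond 1 to 209, 155 and 109 TPM in Cond 2, and LHX5 from 4.27, 10.2 and 9.36 TPM to 334, 244 and 207 TPM. PAX6, also called in Cond 2, rose 4.58-fold (adjusted p = 0.0451) at a low level and lost the call in 6 of 13 alternatives, from 0, 0.0513 and 0.0827 TPM to 0.134, 0.170 and 0.372 TPM. Of 9 surface ectoderm and amnion markers, 7 rose and 2 fell in Cond 2, with sums of 259 to 301 TPM in Cond 1 and 295 to 328 TPM in Cond 2, and 3 rose and 1 fell in Cond 3. That was 100% of the 9 in Cond 2 and 44.4% in Cond 3, beside 20.9% and 38.4% of all genes. Most of the summed level was KRT8, a keratin of simple epithelia, which fell by 0.19 on the log2 scale in Cond 2 (adjusted p = 0.0173), from a mean of 227 to 211 TPM, and lost the call in 7 of 14 alternatives. GABRP, the other marker that fell, went from a mean of 6.59 TPM in Cond 1 to 0.293 in Cond 2 and 2.57 in Cond 3. The transcription factor TFAP2A rose 28.7-fold in Cond 2 (adjusted p = 3.86e-08), from 5, 9 and 4 counts to 244, 219 and 87 counts. GATA3 rose 25.3-fold (adjusted p = 1.59e-06), from 0.214, 0.187 and 0.402 TPM to 12.1, 6.29 and 3.97 TPM. DLX5 (adjusted p = 6.56e-07) went from 2, 0 and 0 counts to 232, 94 and 44 counts, or 26.3, 9.44 and 5.24 TPM. In Cond 3, LHX5 rose by 2.01 and TFAP2A by 2.28 on the log2 scale, the latter lost under limma on log2(TPM + 1) (adjusted p = 0.168). SIX3, PAX6, GATA3 and DLX5 did not pass in Cond 3. Of 6 floor plate markers, the tissue that secretes SHH, only NTN1 and SPON1 were tested, and both rose in Cond 3 while SPON1 fell in Cond 2, with a sum of 15.2 to 16.6 TPM in Cond 1 and 21.9 to 23.7 TPM in Cond 3. Of 7 fibroblast markers, 5 were tested, of which 3 fell in Cond 2 and 2 rose and 1 fell in Cond 3, with sums of 424 to 456, 265 to 314, 585 to 622 and 384 to 408 TPM in Cond 1 to Cond 4, while DCN and LUM were at or below 0.159 TPM in all libraries. The 7 mesendoderm markers summed to at most 5.86 TPM in any library, and of the 2 tested TBXT rose in Cond 3. Of the floor plate, fibroblast and mesendoderm markers tested, 50%, 60% and 0% passed in Cond 2, where 20.9% of all genes did. In Cond 3 it was 100%, 60% and 50%, beside 38.4% of all genes. In Cond 4 no marker of any list passed.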

How the data were processed

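RNA-Seq was measured in 12 libraries of 201B7 cells. Per the labels and the study's methods, the authors prepared strand-specific poly(A) libraries, converted and trimmed the reads (bcl2fastq 2.20.0.422, cutadapt 4.1, fastp 0.20.1), aligned them to GRCh38 with HISAT2 2.1.0 and counted reads per gene with featureCounts, whose strand and multi-mapping settings are not given in the sources used here. The deposited count table holds raw read counts, and the deposited TPM values equal count over gene length, scaled, with a largest relative deviation of 1.79e-14. Of 58580 count lines, 5 held no whole gene row and were left out, and 2042 genes of the TPM table had no count row.

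Counts were normalized by TMM, filtered with filterByExpr and tested in one fit over the 4 conditions with edgeR 4.0.16 in R 4.3.3, with Benjamini-Hochberg adjustment over 17747 genes. The 95% intervals are the estimate ± the normal quantile times its standard error. Exact permutation tests were two-sided (scipy 1.17.1). Other settings tried were upper-quartile normalization, DESeq2 1.42.0, omission of the count filter, limma 3.58.1 on log2(TPM + 1) (also with genes of at least 1 TPM in all libraries) and on log2(TPM + 0.1), a block for the replicate number, only the 6 libraries at hand, stricter thresholds and each library left out. The methods were tested on simulated data. Coordinates are from GENCODE release 44, which held 99.4% of the gene identifiers.

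The genes and lists were chosen with earlier results of these data known. Besides the 9 genes, the text names pathway genes with an adjusted p-value under 0.05, a fold change above 2 in Cond 2 or Cond 3 and a mean of at least 1 TPM, up to 3 others per list with the highest mean TPM, and the 3 genes most alike in pattern to each Hedgehog gene called. A few genes that these rules select are not reported here. At these depths HHIP had 13 to 109 counts per library and the other 7 genes tested 184 or more. Limits on 0 counts cover counting error only. The intervals of the edgeR differences also include the spread between these libraries, and no variation beyond them.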

Additional observations from a re-analysis of the deposited data

How the results depend on the processing

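Of 444 alternative values for the Hedgehog genes, 414 kept direction and side of the threshold, 18 kept direction and lost the call, 1 gained it and 11 changed sign. All 11 sign changes were in Cond 4 against Cond 1, at values near 0. They were GLI1 at 0.02 on all 3 limma scales, and values with 1 library left out, which ranged from -0.10 to 0.05 for GLI1, -0.04 to 0.02 for SMO, -0.08 to 0.10 for GAS1 and -0.12 to 0.15 for BOC. Other pathway genes that changed sign, all uncalled in Cond 2, were PRKAR1A (0.03), CSNK1A1 (0.07), MYCN (0.06) and ULK3 (0.08) on all 3 limma scales, and, with 1 library left out, CSNK1A1 (-0.03 to 0.00), MGRN1 (-0.04 to 0.06), ULK3 (-0.15 to 0.08) and SNAI1 (-0.18 to 0.34). The markers SIX3 (-0.31 to 0.85) and KRT8 (-0.03 to 0.09), uncalled in Cond 3, changed sign there with 1 library left out. For Cond 2 against Cond 1, the median limma log2 difference among genes of at least 1 TPM in all libraries was 0.08. In the main edgeR fit the median over all genes tested was 0.00. TPM levels in Cond 2 may thus read slightly higher than the edgeR differences. The cause of the sign changes was not tested.

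With a fold change above 2 required as well, 1 Hedgehog gene, 5 other pathway genes and 770 of all genes passed in Cond 2, 1, 4 and 1449 in Cond 3, 1, 5 and 1557 between Cond 3 and Cond 2, and 3 of all genes in Cond 4. At an adjusted p under 0.01, 2334 genes passed in Cond 2. Limma on log2(TPM + 0.1) called 1602 genes and 9 other pathway genes in Cond 2, 3796 genes in Cond 3, and 4056 genes and 13 other pathway genes between them. In Cond 4 edgeR called 5 genes and none of the Hedgehog genes, with 1102 genes at an unadjusted p under 0.05, DESeq2 called 12, no filter 52, limma 21 on log2(TPM + 0.1) and 2 with the TPM filter, and the 6 libraries alone 8.

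Leaving out each library in turn gave 6 to 7 Hedgehog genes in Cond 2 and in Cond 3, 0 in Cond 4 and 2 to 3 between Cond 3 and Cond 2. All genes ranged over 2845 to 3536, 5677 to 6163, 4 to 5 and 5612 to 6427, and other pathway genes over 11 to 14, 19 to 23, 0 and 16 to 21. Same-numbered libraries deviated from their group means with r between -0.01 and 0.04 over 18 pairs. For libraries of different number r was between -0.07 and 0.06 over 36 pairs. No deviation shared by number was seen, but this cannot show whether equal numbers stand for the same plate. With the replicate number as a block, 7, 7, 0 and 3 Hedgehog genes passed in Cond 2, Cond 3, Cond 4 and Cond 3 against Cond 2, and 13, 23, 0 and 21 other pathway genes. The share of all genes that passed with the block is not reported here. In the main fit it was 20.9%, 38.4%, 0.0282% and 38.2%. SHH and HHIP were limited by depth, and HHIP could not be tested where at least 1 TPM was required.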
